A study of Mus musculus with 29 samples.

Results

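Colitis brought on by the transfer of naive CD4+ T cells (TCT) was compared with wild-type (WT) colon. Of the 29 mice of the series 6 entered this comparison, the 3 mice whose labels describe T-cell transfer (replicates 1, 3 and 5) and the 3 untreated mice whose labels describe the wild type (replicates 1, 2 and 4). Poly(A) RNA of colon tissue was sequenced with 1 library per mouse, and the deposited values are counts of reads per gene. The TCT mice carry the genotype label C57BL/6 Rag1-/- and received 500000 CD4+ CD25- CD44low CD62Lhigh cells into the peritoneum, with culling 6 to 8 weeks later. Their treatment label calls the recipients Rag2-/- instead. The untreated WT mice are labelled Balb/C, whereas the methods of the study describe wild-type C57BL/6 mice. The labels give no age or sex for either group, and the methods describe young adult recipients and donors of either sex. For the recipients the methods also give an earlier range of culling times and, beside this cell number, a larger one. The labels name no other allele or treatment for these groups. Recombination of antigen receptor genes needs both Rag1 and Rag2, so recipients lacking either gene make no mature T or B cells, and the T cells of a TCT mouse are donor cells. The 2 groups thus differ at once in the transferred cells, in the colitis, in the recipients' missing lymphocytes and, if the labels hold, in strain, and these cannot be told apart here. Levels in 3 untreated mice labelled C57BL/6 Rag1-/- and 3 untreated mice labelled Balb/C Rag2-/- are given beside those of TCT and WT where they bear on this.

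In transfer colitis, naive CD4+ T cells placed in a host without lymphocytes divide, meet antigens of the gut bacteria and turn into effector cells that inflame the colon. Those of the Th1 type make interferon-γ, which acts through IRF1 and other factors to switch on antigen presentation, CXCR3 chemokines and the GTPases of cell-autonomous defence. Those of the Th17 type make IL-17 and IL-22, and IL-22 acts on the epithelium, where it raises antimicrobial proteins and neutrophil-attracting chemokines. B cells and plasma cells, which supply the IgA of the healthy colon, are absent from Rag-deficient hosts.

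The labelled genotypes and strains were checked against transcripts that should follow them. H2-Ea-ps, a class II gene that mice of the C57BL/6 haplotype do not transcribe and BALB/c mice do, had 0 counts in all 3 TCT mice and 1 count in total in the WT mice. Its mean level was 73.6 CPM (the count of a gene relative to the size of its library, on the TMM scale) in the untreated mice labelled Rag1-/- and 87.3 CPM in those labelled Rag2-/-. This WT group was set against TCT because both lack the transcript, so that likeness follows from the choice and checks no label. The level in the WT mice goes against their label Balb/C. That in the untreated mice labelled Rag1-/- goes against their label C57BL/6. H2-K1 followed the same division, with 2167 to 3319 CPM in TCT, 995 to 1146 CPM in WT and means of 83.7 and 70.4 CPM in the untreated mice labelled Rag1-/- and Rag2-/-. For MHC genes the levels of the untreated Rag-deficient mice are not set beside those of TCT for this reason. For other genes, a difference between these mice and WT may follow background or missing lymphocytes, which cannot be told apart here. Rag1 reached 2.88, 2.31 and 1.85 CPM in TCT mice 1, 3 and 5 against 0, 0.2 and 0.082 CPM in WT mice 1, 2 and 4, and means of 0.156 and 0.059 CPM in the untreated mice labelled Rag1-/- and Rag2-/-. A count over the whole gene does not separate an intact from a disrupted transcript, so it does not check the label. Rag2 had 0 counts in the TCT mice, 1 count in total in the WT mice (-1.80 ± 1.66, edgeR adjusted p = 0.434) and means of 1.15 and 1.55 CPM in the 2 untreated Rag-deficient groups.

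Total counts ran from 10730181 to 11659953 in TCT and from 11519242 to 13524777 in WT, and 18616 genes were tested. Relative to WT, 3155 genes were higher in TCT and 2570 were lower, by edgeR's quasi-likelihood test over all mice with a Benjamini-Hochberg adjusted p under 0.05, which is 16.9% and 13.8% of the genes tested (30.8% together). A called gene is one past this threshold. The first principal component held 74.2% of the variance of the 6 mice and separated the groups, while the second, with 10.8%, set TCT mouse 1 apart from TCT mouse 5. Among the genes tested, 4418 (23.7%) had all 3 TCT mice above all 3 WT mice and 4642 (24.9%) had them all below. These shares are the background for each list that follows. Of all genes called higher, 63.0% also had every TCT mouse above all 9 untreated mice (WT and Rag-deficient). That share is the background where rises of a list are set beside the 9 untreated mice. The median log2 fold change of all genes was -0.006. Upper quartile scaling moved it to -0.115 and changed the split from 55.1% higher among called genes to 41.8%, with 2429 higher and 3385 lower. Without TCT mouse 5 the genes called lower numbered 1520, the largest change from leaving out 1 mouse.

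**Figure D1:**
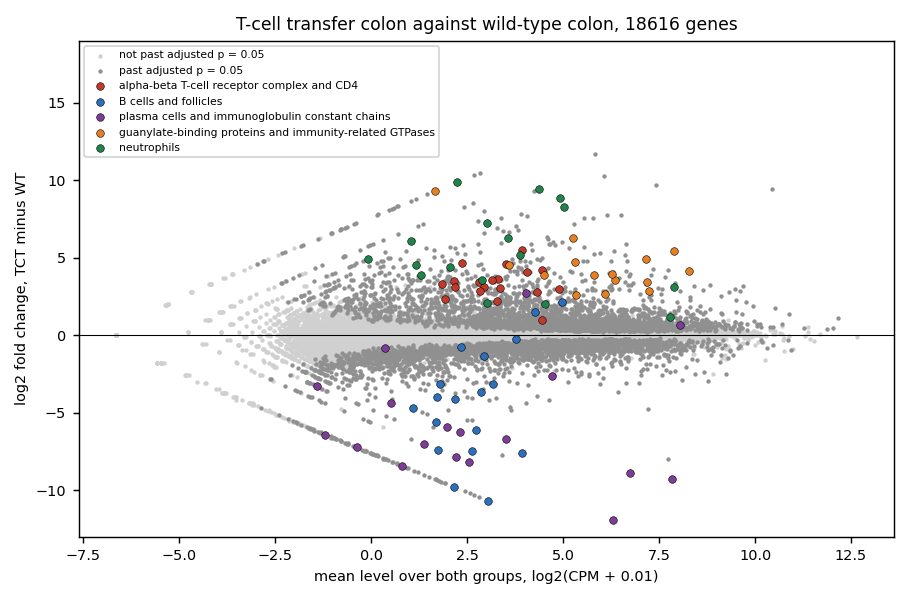
Log2 fold change of TCT over WT (vertical axis) against the mean level over both groups as log2(CPM + 0.01) (horizontal axis), 1 point per gene for 18616 genes, with genes past an adjusted p of 0.05 in dark grey and 5 gene lists in colour. Genes of the T-cell receptor complex, the GTPases and neutrophils lie above 0, and most genes of B cells and plasma cells lie below 0.

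T-cell transcripts were higher in every TCT mouse. Of 19 genes of the αβ T-cell receptor complex and its signalling, all 19 rose, with a median log2 fold change of 3.285 against -0.006 over all genes. Their summed level was 538, 334 and 292 CPM in TCT mice 1, 3 and 5 and 40.6, 46.2 and 60.7 CPM in WT mice 1, 2 and 4. In the untreated Rag-deficient mice it stood between 25 and 41.4 CPM, against at least 40.6 CPM in WT, and 18 of the 19 genes were above all 9 untreated mice in each TCT mouse. In these bulk samples, more cells of a type and more RNA per cell cannot be told apart.

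Trac, the constant chain of the receptor's α subunit, stood at 17.9, 11.2 and 9.17 CPM in TCT mice 1, 3 and 5 and at 1.22, 1.2 and 1.15 CPM in WT mice 1, 2 and 4. No TCT mouse overlapped a WT mouse, and the log2 fold change was 3.41 ± 0.36 (SE, n = 3 per group, edgeR adjusted p = 1.09e-06). Cd4, the coreceptor of the transferred cells, measured 68.9, 51.6 and 38 CPM in TCT against 5.79, 5.06 and 9.1 CPM in WT (2.99 ± 0.40, edgeR adjusted p = 1.23e-05). Cd3g, Cd6, Lat and Lck, which carry and pass on the receptor's signal, rose by 4.05, 5.51, 4.20 and 2.78 on the log2 scale. For Trbc1 and Trbc2, 40.5% and 44.0% of the 50-base stretches of their exons are also found elsewhere among the genes, which leaves their separate values uncertain. The smallest change of the list, Bcl11b at 0.97, lost its call without WT mouse 1 (edgeR adjusted p = 0.0547).

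The variable segments showed the same difference in counts. TCT mice 1, 3 and 5 had 70, 29 and 31 counts over the Trav segments, where WT mice 1, 2 and 4 had 4, 8 and 7. Over the Trbv segments the counts were 179, 68 and 80 in TCT and 13, 15 and 11 in WT. The segments with a count numbered 34, 19 and 19 for Trav and 17, 16 and 18 for Trbv in the TCT mice. At this depth each segment is covered by a few reads.

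Genes of T-cell activation rose in 12 of 16 cases (median 1.885). Icos and Ctla4, a costimulatory and an inhibitory receptor, rose by 3.63 ± 0.64 and 3.66 ± 0.83 on the log2 scale (edgeR adjusted p = 0.000251 and 0.00211). Tnfrsf9, Il2ra and Tigit rose by 3.57, 2.76 and 3.19. Cd40lg, by which helper T cells act on B cells and macrophages, had 2 counts in WT, both in mouse 4, and its ratio was 51.1 with an exact 95% interval from 13.7 to 429 that covers counting error only. Pdcd1 (2.10) lost its call without WT mouse 1 (adjusted p = 0.0601) or WT mouse 2 (adjusted p = 0.051). The 4 genes that did not pass were Foxp3, Il10, Ikzf2 and Tnfrsf18. Foxp3, the factor that defines regulatory T cells, measured 0.437, 1.2 and 0.371 CPM in TCT and 0.305, 0.266 and 0.164 CPM in WT, with a log2 fold change of 1.41 ± 0.77 (edgeR adjusted p = 0.169). The 3 TCT mice lay above the 3 WT mice for Foxp3, at a few counts per library.

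Cytotoxic genes rose with them, 9 of 11 (median 4.032). Gzma, a granule protease, went from 0.229, 0.2 and 0.328 CPM in WT to 19, 43.9 and 22.0 CPM in TCT (6.78 ± 0.98, edgeR adjusted p = 3.12e-05). Gzmb, Nkg7 and the chemokine Ccl5 rose by 5.94, 4.67 and 5.50 on the log2 scale. Ncr1, a marker of natural killer cells, did not pass, with 0.611, 0.427 and 0.649 CPM in TCT and 0.457, 0.133 and 0.164 CPM in WT (1.14 ± 0.85, edgeR adjusted p = 0.317).

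The α and β chains of CD8 did not move together. Cd8a rose, from 1.3, 0.799 and 1.64 CPM in WT to 9.69, 12.5 and 6.12 CPM in TCT (2.93 ± 0.53, edgeR adjusted p = 0.000307). Cd8b1, present on conventional CD8 T cells, had 0.349, 0.171 and 1.48 CPM in TCT and 0.533, 0.599 and 0.902 CPM in WT, with overlapping groups (-0.04 ± 0.68, edgeR adjusted p = 0.974). Cd160 rose by 3.68 ± 0.49 (edgeR adjusted p = 1.17e-05). Cd8a and Cd160 were the 2 of 5 tested genes of CD8 and γδ T cells to rise, and the median of the list was -0.036.

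Trdc, the constant chain of the γδ receptor's δ subunit, had 0.175, 0.0855 and 0.0927 CPM in TCT against 0.0762, 0.266 and 0.246 CPM in WT (-0.70 ± 1.05, edgeR adjusted p = 0.643). The groups overlapped. By contrast, a γ constant gene, Tcrg-C2, was counted at 13.4, 11.7 and 6.95 CPM in TCT and 0.381, 0.133 and 0.328 CPM in WT (5.23 ± 0.53, edgeR adjusted p = 3.32e-06). It had no count in the 6 untreated Rag-deficient mice, and Trgv2 followed it with 36.4 times the WT level (exact 95% interval of the counts 12.1 to 179.9). Tcrg-C1 rose by 2.38 ± 0.48 (edgeR adjusted p = 0.000771). These γ genes were chosen after their values were seen, and 25.4% of the exonic windows of Tcrg-C2 occur in another gene.

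Most B-cell and plasma-cell transcripts fell in TCT colon. Of 18 genes of B cells and follicles 13 fell and 2 rose (median -4.065), and of 18 genes of plasma cells and immunoglobulin constant chains 15 fell and 2 rose (median -6.578). The B-cell list summed to 139, 91.6 and 84.1 CPM in TCT, 161, 177 and 270.1 CPM in WT and 21 to 34.6 CPM in the untreated Rag-deficient mice. The plasma-cell list summed to 313, 373 and 400.4 CPM in TCT, 684, 913 and 1883 CPM in WT and 212 to 266 CPM in the untreated Rag-deficient mice. The summed levels of TCT thus lay between those of the other groups for both lists. These sums include the members that rose, among them Cxcl13, so they do not measure how many B or plasma cells remained. For each of these 13 and 15 genes the 6 untreated Rag-deficient mice also lay below all 3 WT mice, and for no gene among them did every TCT mouse lie below all 9 untreated mice.

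Fcmr, the IgM receptor, had 0 counts in each TCT mouse and 6.33, 8.39 and 12.2 CPM in WT. Taking 3 counts over the TCT group as the upper limit, it was at least 100.4-fold lower. Cd79a, Ms4a1 and Pax5, which encode the receptor's signalling chain, CD20 and the factor of B-cell identity, fell with them. Ms4a1 kept 1.66, 0.855 and 0.556 CPM in TCT against 12, 11.4 and 16.8 CPM in WT (-3.69 ± 0.62, edgeR adjusted p = 0.000147).

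Jchain, which links IgA into dimers, had 0, 0 and 0.0927 CPM in TCT mice 1, 3 and 5 and 64.4, 99.8 and 309.8 CPM in WT mice 1, 2 and 4. That 1 count in TCT gives a ratio of WT to TCT of 5151, with an exact 95% interval of the counts from 924 to 203470. Igha, the heavy chain of IgA, stood at 0.611, 0.342 and 1.3 CPM in TCT against 228, 339.7 and 810.4 CPM in WT (-9.26 ± 0.57, edgeR adjusted p = 3.14e-10). WT mouse 4 was the highest of the WT mice for Jchain, Igha and Igkc. Igkc, the κ light chain, had 0.175, 0.0855 and 1.11 CPM in TCT and 111, 162 and 370.2 CPM in WT (-8.88 ± 0.61, edgeR adjusted p = 5.95e-09).

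Ighm fell less than the other constant chains. Its levels were 6.46, 5.3 and 10.1 CPM in TCT and 36, 43.5 and 55.7 CPM in WT (-2.63 ± 0.48, edgeR adjusted p = 0.000333), and its mean was 3.1 and 5.48 CPM in the untreated mice labelled Rag1-/- and Rag2-/-. Over all Ig variable segments the TCT mice had 9, 8 and 12 counts, the WT mice had 1668, 2696 and 5464, and the 6 untreated Rag-deficient mice had none. Segments with a count numbered 6, 6 and 7 in TCT against 140, 152 and 155 in WT. Of the 142 segments tested 73 were called lower (51.4%), with a median of -6.027. Immunoglobulin genes took 0.06064%, 0.08552% and 0.1892% of the WT libraries, and leaving them out of the scaling gave 3152 genes higher and 2571 lower.

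Not all genes of these lists fell. Cxcl13, the chemokine that draws B cells into follicles, rose from 9.98, 11.3 and 13.0 CPM in WT to 61.2, 51.5 and 40.4 CPM in TCT (2.16 ± 0.40, edgeR adjusted p = 0.000397). Ltb, a lymphotoxin chain that T cells also make, rose by 1.46 ± 0.39 (edgeR adjusted p = 0.00632). Prdm1 and Xbp1, factors of plasma cells that other cell types use as well, rose by 2.72 ± 0.40 and 0.68 ± 0.16 (edgeR adjusted p = 3.34e-05 and 0.00212). Glycam1, an endothelial ligand of lymphoid tissue, fell from 8.08, 7.39 and 9.6 CPM to 0.873, 0.171 and 0.371 CPM (-4.12 ± 0.83, edgeR adjusted p = 0.000816). In the untreated Rag-deficient mice Glycam1 averaged 2.12 and 1.36 CPM.

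Interferon-γ and most of the genes it controls rose. Ifng itself had 45, 51 and 75 counts in TCT mice 1, 3 and 5 and 0, 0 and 1 in the WT mice, a ratio of 203 with an exact 95% interval of the counts from 36.0 to 8072. Its edgeR adjusted p of 0.0136 rose to 0.054 without WT mouse 1 and to 0.055 without WT mouse 2. Of 22 genes of the Th1 pathway and interferon-γ targets 20 rose (median 3.63), and all 20 were higher in each TCT mouse than in all 9 untreated mice. Il12a and Il18 did not pass, and for both all TCT mice lay below all WT mice. On the TCT and WT mice alone Il18 was called lower (edgeR adjusted p = 0.00579, DESeq2 adjusted p = 0.000121). The summed level of the list was 1581, 1097 and 2168 CPM in TCT and 360.2, 379 and 421 CPM in WT.

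Upstream of the cytokine, Tbx21, the factor of Th1 cells, and Il12rb1, a chain of the IL-12 receptor, rose by 3.81 ± 0.60 and 3.76 ± 0.69 (edgeR adjusted p = 7.6e-05 and 0.000349). Il12b, the p40 chain shared by IL-12 and IL-23, measured 2.36, 0.769 and 2.32 CPM in TCT and 0.229, 0 and 0.246 CPM in WT (3.50 ± 1.19, edgeR adjusted p = 0.0285). That call was lost without any of WT mice 1, 2 and 4 or TCT mice 1 and 5, with adjusted p up to 0.11. Irf1, which carries the signal to the promoters, rose by 1.59, and Socs1, its feedback inhibitor, by 4.34.

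Among the targets, Cxcl9, which draws CXCR3-bearing T cells, rose from 0.838, 0.666 and 0.41 CPM in WT to 101, 96.0 and 224 CPM in TCT (7.75 ± 1.43, edgeR adjusted p = 0.000352). Ido1, an enzyme that breaks down tryptophan, reached 132, 58.6 and 355 CPM against 0.686, 0.799 and 0.984 CPM (7.78 ± 1.90, edgeR adjusted p = 0.0037). In both genes TCT mouse 5 was highest and TCT mouse 3 lowest. Cxcr3, the receptor of Cxcl9 and Cxcl10, rose by 4.49 ± 0.45 (edgeR adjusted p = 5.98e-07). Cd274, the ligand PD-L1, rose by 2.94 but not past the threshold without WT mouse 1 (adjusted p = 0.0551) or WT mouse 2 (adjusted p = 0.0525).

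The guanylate-binding proteins and immunity-related GTPases, which attack the vacuoles of intracellular microbes, rose in 15 of 15 cases (median 3.931). All 15 were highest in TCT mouse 5 among the TCT mice, and all 15 were above all 9 untreated mice. The summed level was 2117, 1572 and 4294 CPM in TCT mice 1, 3 and 5 and 195, 167 and 185 CPM in WT. Gbp2 had 486, 297 and 977 CPM in TCT against 35.4, 31.9 and 32.6 CPM in WT (4.14 ± 0.93, edgeR adjusted p = 0.00196), and Igtp had 228, 146 and 449 CPM against 9.07, 8.33 and 10.0 CPM (4.91 ± 1.01, edgeR adjusted p = 0.000935). Irgm1 and Tgtp1 rose by 2.83 and 6.29 on the log2 scale. Gbp10 had no count in WT and was at least 83.6-fold higher, but 84.1% of its exonic windows also occur in another gene. The same holds for 81.2% of those of Tgtp1.

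Because these genes moved together, their promoters were read for 2 motifs, searched on both strands from 250 bases before to 50 bases after the start. GAAANNGAAA is a core of the interferon-stimulated response element, and TTCNNNGAA is the palindrome of the gamma-activated sequence. Promoters were found in RefSeq (GRCm38.p6) for 9 of the 15 genes. GAAANNGAAA was present in 9 of the 9 genes (100%), where 3.99% of all 27025 genes with a promoter hold it. The promoter of a second Gbp3 start held neither motif. Some of these genes are near copies (79.4% of the exonic windows of Tgtp1 occur in Tgtp2), so the 9 are not independent cases. TTCNNNGAA was present in 6 of the 9 (66.7%) against 9.55% of all genes. Of the 16 genes of the wider interferon-γ list with a promoter, 5 (31.2%) held TTCNNNGAA and 3 (18.8%) held GAAANNGAAA. Among genes of MHC class I and the immunoproteasome these shares were 7.14% and 28.6%, and among class II genes 11.1% and 11.1%. A match is a run of letters, not a shown binding site. The 250 bases before the start of 5 genes are printed 5′ to 3′ on the strand of the gene, as examples that hold 1 or both motifs, with the matches in capitals (the match in Gbp2 lies on the opposite strand and is printed as its reverse complement).
Gbp2 (chr3:142620413-142620662, + strand): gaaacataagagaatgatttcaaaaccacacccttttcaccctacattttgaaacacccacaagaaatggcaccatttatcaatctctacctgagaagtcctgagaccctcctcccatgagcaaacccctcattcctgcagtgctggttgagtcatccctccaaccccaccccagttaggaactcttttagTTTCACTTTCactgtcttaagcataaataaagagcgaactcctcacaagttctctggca
Igtp (chr11:58199306-58199555, + strand): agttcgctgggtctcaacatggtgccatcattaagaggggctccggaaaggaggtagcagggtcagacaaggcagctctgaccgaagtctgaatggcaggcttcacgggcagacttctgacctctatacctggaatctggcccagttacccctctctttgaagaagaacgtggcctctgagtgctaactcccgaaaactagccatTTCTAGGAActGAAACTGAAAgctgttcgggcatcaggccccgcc
Irgm1 (chr11:48871421-48871670, - strand): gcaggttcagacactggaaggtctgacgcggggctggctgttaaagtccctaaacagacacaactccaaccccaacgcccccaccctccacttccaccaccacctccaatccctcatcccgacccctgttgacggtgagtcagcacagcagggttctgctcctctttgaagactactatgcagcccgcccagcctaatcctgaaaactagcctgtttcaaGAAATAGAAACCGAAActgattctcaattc
Tgtp1 (chr11:48992247-48992496, - strand): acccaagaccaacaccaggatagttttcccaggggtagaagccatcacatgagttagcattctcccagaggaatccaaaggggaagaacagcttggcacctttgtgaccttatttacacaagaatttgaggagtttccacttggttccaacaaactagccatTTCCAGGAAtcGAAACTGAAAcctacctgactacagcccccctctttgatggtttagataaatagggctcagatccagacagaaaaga
Irf1 (chr11:53769764-53770013, + strand): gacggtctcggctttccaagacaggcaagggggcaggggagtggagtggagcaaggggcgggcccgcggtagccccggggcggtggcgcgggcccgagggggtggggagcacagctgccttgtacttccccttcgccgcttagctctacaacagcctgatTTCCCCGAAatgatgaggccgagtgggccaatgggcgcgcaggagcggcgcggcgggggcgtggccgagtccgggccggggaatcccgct

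In Igtp and Tgtp1 the palindrome and the response element stood side by side, with the palindrome farther from the start. Igtp held them 37 and 25 bases before the start and Tgtp1 80 and 68 bases before it. Irgm1 held 2 overlapping copies of GAAANNGAAA, the nearer of them 15 bases before the start. Gbp2 held 1 copy 50 bases before the start and no palindrome in this window. The Irf1 promoter printed above held the palindrome 82 bases before the start and no GAAANNGAAA, and the promoter of a second Irf1 start held neither.

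**Figure D2:**
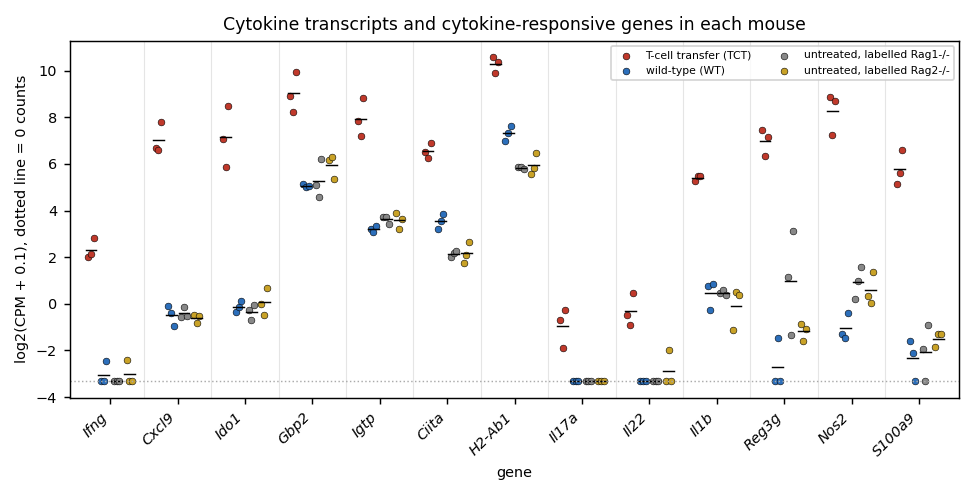
Levels of 13 cytokines and cytokine-responsive genes as log2(CPM + 0.1) in the 3 TCT, 3 WT and 6 untreated Rag-deficient mice, 1 point per mouse with a bar at the group mean and a dotted line at 0 counts. Cxcl9, Ido1, Gbp2, Igtp, Nos2 and S100a9 are highest in TCT, and the Il17a and Il22 points of the WT mice lie on the dotted line.

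Antigen presentation rose with the interferon-γ targets. All 15 genes of MHC class I and the immunoproteasome rose (median 1.725), B2m among them from 314, 307 and 335 CPM in WT to 1638, 1117 and 1488 CPM in TCT (2.15 ± 0.36, edgeR adjusted p = 0.000149). H2-K1 and H2-D1, the classical class I heavy chains, rose by 1.37 ± 0.25 and 1.73 ± 0.25. Psmb9, an inducible proteasome subunit, and Tap1, the peptide transporter, rose by 3.30 and 3.75, and Nlrc5, the transactivator of class I genes, by 4.77.

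Of 12 class II genes 8 rose and 1 fell (median 2.13). H2-Ab1, a chain of the class II molecule I-A, had 1537, 957 and 1324 CPM in TCT against 127, 162 and 196 CPM in WT (2.98 ± 0.37, edgeR adjusted p = 5.41e-06). Cd74, the invariant chain, rose by 3.15 ± 0.43, and Ciita, the transactivator of class II genes, by 3.02 ± 0.46. H2-Ob, a class II gene of B cells, was the member that fell, with 5.59, 1.45 and 2.04 CPM in TCT and 14.3, 18.2 and 23.5 CPM in WT (-2.62 ± 0.60, edgeR adjusted p = 0.0022). Genes within 5 Mb of H2-Ab1 were called in 39.1% of 233 cases (70 higher, 21 lower), against 30.8% of all genes, and those within 5 Mb of Rag1 in 42.9% of 42 cases (9 in each direction).

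Antiviral genes of the type I interferon response rose in 15 of 18 cases (median 2.018). The count fell to 8 without WT mouse 1, 9 without WT mouse 2 and 7 without TCT mouse 5. For 9 of the 15 the 6 untreated Rag-deficient mice also lay above all 3 WT mice, and 6 of the 15 were higher in every TCT mouse than in all 9 untreated mice. Among the 20 interferon-γ pathway genes called higher these numbers were 0 and 20. Oas3, a sensor that activates RNase L, had 59.1, 22.7 and 80.2 CPM in TCT, 1.14, 0.932 and 0.738 CPM in WT, and means of 15.7 and 12.2 CPM in the untreated mice labelled Rag1-/- and Rag2-/-. Its log2 fold change was 5.83 ± 1.11 (edgeR adjusted p = 0.000466). Isg15 had 50.6, 18.3 and 62.5 CPM in TCT and 2.82, 2.4 and 2.21 CPM in WT (4.14 ± 0.89, edgeR adjusted p = 0.00131), beside means of 18.8 and 13.8 CPM in the untreated Rag-deficient groups. Irf7 averaged 132 and 117 CPM there, within the TCT range of 59.5 to 177 CPM, and its call (1.36, edgeR adjusted p = 0.0321) was lost without any of TCT mice 1 and 5 or WT mice 1, 2 and 4, with adjusted p up to 0.111. Ifih1 (0.35) and Mx2 (1.14) did not pass.

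Cytokines of the Th17 and IL-22 axis were detected at few counts. Il17a had 0.524, 0.171 and 0.741 CPM in the TCT mice and 0 counts in WT, at least 6.34-fold higher (edgeR adjusted p = 0.124). Il22 had 0.611, 0.427 and 1.3 CPM and 0 counts in WT, at least 10.3-fold higher (edgeR adjusted p = 0.102), and 41.0% of its exonic windows occur in another gene. Neither passed the threshold although no TCT mouse was at 0. Of 18 genes tested on this axis 4 rose and 2 fell (median 1.283). The count of rises was 2 without WT mouse 1, WT mouse 2, TCT mouse 1 or TCT mouse 5, and 9 when edgeR or DESeq2 was run on the TCT and WT mice alone, with Il17a (adjusted p = 0.016 and 0.007) and Il22 (adjusted p = 0.00714 and 0.000478) among them.

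Il1b, which supports Th17 cells and recruits neutrophils, rose from 1.6, 0.733 and 1.72 CPM in WT to 38.2, 44.1 and 45.1 CPM in TCT (4.99 ± 0.98, edgeR adjusted p = 0.000642). Tnf rose by 4.74 ± 0.87 (edgeR adjusted p = 0.000341). Il22ra1, the epithelial chain of the IL-22 receptor, was lower by -0.65 ± 0.19, a call lost without TCT mouse 3 (adjusted p = 0.0547).

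Of 19 genes that the epithelium raises in response to IL-22 14 rose in TCT (median 3.528), and 12 of the 14 were above all 9 untreated mice. Of the 5 that did not pass, 2 were below WT in all mice. For 6 of the 14 the untreated Rag-deficient mice also lay above all WT mice. The summed level of the list overlapped between the groups, with 6815, 4508 and 5501 CPM in TCT, 4163, 4549.8 and 4481 CPM in WT and 4866 to 6113 CPM in the untreated Rag-deficient mice. Reg3b, an antimicrobial lectin, had 182, 74.7 and 84.4 CPM in TCT and 1 count in WT, a ratio of 4601 with an exact 95% interval of the counts from 825 to 181767. Nos2, the inducible nitric oxide synthase, rose from 0.305, 0.266 and 0.656 CPM in WT to 471, 149 and 409 CPM in TCT (9.71 ± 1.27, edgeR adjusted p = 1.01e-05). Duox2 and its maturation factor Duoxa2, which make hydrogen peroxide at the epithelial surface, rose by 2.87 and 4.16, and Socs3, the inhibitor that STAT3 induces, by 4.09. Lcn2, which withholds iron from bacteria, had 8.12, 15 and 34.7 CPM in TCT and 1.75, 1.8 and 1.39 CPM in WT (3.53 ± 0.87, edgeR adjusted p = 0.00398).

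Pla2g2a, a secreted phospholipase that C57BL/6 mice carry in mutated form, behaved differently among the groups. It rose from 0.762, 0.799 and 0.902 CPM in WT to 23, 67.0 and 57.0 CPM in TCT (5.89 ± 0.67, edgeR adjusted p = 2.38e-06), but averaged 89.4 and 146 CPM in the untreated Rag-deficient groups. Pigr, which carries IgA across the epithelium, did not pass, with 3048, 2422 and 2167 CPM in TCT and 3145, 3508 and 3382 CPM in WT (-0.39 ± 0.20, edgeR adjusted p = 0.144).

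Chemokines rose in 14 of 21 cases and fell in 1 (median 2.815). The ligands of CXCR2 that attract neutrophils were among them. Cxcl5 had 108, 80.1 and 179 CPM in TCT against 2.74, 3.2 and 3.2 CPM in WT (5.32 ± 0.70, edgeR adjusted p = 1.05e-05), with means of 0.111 and 0.0845 CPM in the untreated Rag-deficient mice. Cxcl1 rose by 5.6 ± 0.93, Cxcl2 had a ratio of 427 (exact 95% interval of the counts 76.1 to 16895), and Cxcl3, without a count in WT, was at least 72.9-fold higher. The monocyte chemokines Ccl2, Ccl7 and Ccl8 rose by 3.79, 4.67 and 4.14. Ccl28, which attracts IgA plasma cells, did not pass (-0.35 ± 0.25, edgeR adjusted p = 0.312).

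Neutrophil transcripts rose in 16 of 17 cases, with the highest median of the lists tested (4.93). S100a9, a subunit of calprotectin, had 35.6, 49.1 and 97.4 CPM in TCT and 0.229, 0.133 and 0 CPM in WT (8.82 ± 1.27, edgeR adjusted p = 2.92e-05). Cxcr2 had 7.34, 8.21 and 12.6 CPM in TCT and 0 counts in WT and in the 6 untreated Rag-deficient mice, at least 125-fold higher than WT. Csf3r, the receptor of the neutrophil growth factor, rose by 5.16 ± 0.76. Clec4e and Clec4d, C-type lectin receptors of myeloid cells, also rose, Clec4d by 6.24 ± 0.86. Ly6g was the exception, with 477, 202 and 242 CPM in TCT, 134, 129.9 and 144 CPM in WT and means of 212 and 264 CPM in the untreated Rag-deficient mice (1.17 ± 0.50, edgeR adjusted p = 0.0741).

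Macrophage genes rose in 14 of 20 cases (median 1.688), all 14 above all 9 untreated mice. Cybb, the catalytic chain of the phagocyte oxidase, had 191, 105 and 111 CPM in TCT against 13.3, 15.8 and 17.5 CPM in WT (3.13 ± 0.45, edgeR adjusted p = 2.81e-05). Ccr2, the receptor by which monocytes leave the blood, and C1qa, a complement chain of macrophages, rose by 2.00 and 1.48. Marco, a scavenger receptor, had 56.9, 15.3 and 17.1 CPM in TCT and at most 0.2 CPM in a WT mouse (7.80 ± 0.87, edgeR adjusted p = 3.02e-06). Cd163 and Mrc1, which mark resident macrophages, did not pass, Cd163 with 8.56, 11.6 and 12.4 CPM in TCT and 21, 25.8 and 18.6 CPM in WT (-1.01 ± 0.43, edgeR adjusted p = 0.0761). On the TCT and WT mice alone Cd163 was called lower (edgeR adjusted p = 0.00505, DESeq2 adjusted p = 6.49e-05). Complement and acute phase genes rose in 12 of 15 cases (median 2.097), with C3 from 69.0, 88.2 and 107 CPM to 982, 653 and 847 CPM (3.23 ± 0.52, edgeR adjusted p = 9.48e-05). Of 11 genes of mast cells and eosinophils 3 rose and 1 fell (median 0.697). The mucosal mast cell proteases Mcpt1 and Mcpt2 rose by 3.47 and 3.42, and the fall, of Kit (-0.89), was not called without TCT mouse 5 (adjusted p = 0.0848).

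**Figure D3:**
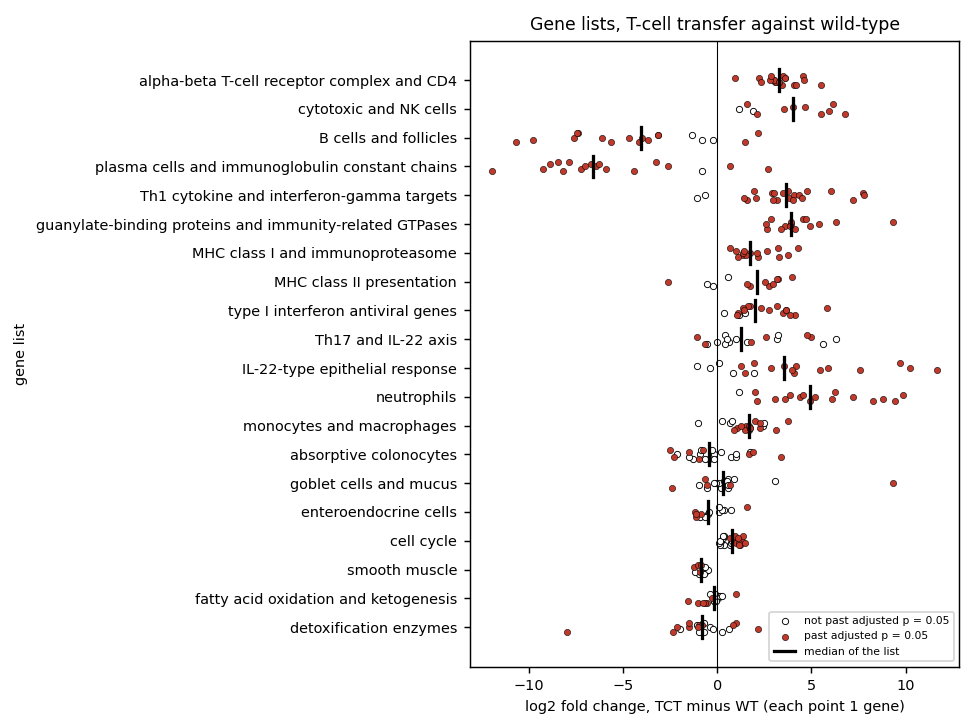
Log2 fold change of TCT over WT (horizontal axis) for the tested members of 20 gene lists (vertical axis), 1 point per gene, red where past an adjusted p of 0.05 and white where not, with a black bar at the median of each list. Medians run from -6.578 for plasma cells to 4.93 for neutrophils, while absorptive, goblet and enteroendocrine cells have medians of -0.436, 0.293 and -0.477 and smooth muscle has -0.862.

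Epithelial lists changed less and in both directions. The share of genes called in either direction was below the 30.8% of all genes in the goblet, tuft and stem cell lists. It was only slightly above it in the absorptive and enteroendocrine lists, so these counts do not set the lists apart from other genes. Of 23 genes of absorptive colonocytes 3 rose and 5 fell (median -0.436), with 10 below and 6 above WT in all mice. The falls numbered 3 without TCT mouse 3 or TCT mouse 5, and 10 when the TCT and WT mice were fitted alone. Abcb1a, the drug efflux pump, fell from 563, 599 and 615 CPM in WT to 109.9, 130.2 and 67.3 CPM in TCT (-2.53 ± 0.40, edgeR adjusted p = 7.75e-05), and Scnn1b, a subunit of the epithelial sodium channel, fell by 2.27 on the log2 scale. Slc16a1, which takes up butyrate, fell by 0.99 ± 0.15 (edgeR adjusted p = 5.04e-05). Slc26a3 and Aqp8, the chloride exchanger and a water channel of the surface cells, did not pass, with log2 fold changes of -1.30 ± 0.58 and -0.84 ± 0.69. On the TCT and WT mice alone both were called lower, by edgeR (adjusted p = 0.0014 and 0.00431) and by DESeq2 (adjusted p = 1.14e-07 and 3.78e-05). Krt20, a keratin of differentiated cells, and the water channel Aqp4 rose instead, by 1.91 ± 0.30 and 3.38 ± 0.57. Aqp4 averaged 250 and 106 CPM in the untreated Rag-deficient mice, between its WT levels (37.3 to 45.8 CPM) and its TCT levels (285 to 526 CPM).

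Of 18 goblet cell genes 2 rose and 3 fell (median 0.293), with 8 above and 2 below WT in all mice, and DESeq2 on the TCT and WT mice alone called 7 higher and 2 lower. The falls numbered 1 without WT mouse 1, WT mouse 4, TCT mouse 3 or TCT mouse 5, and 5 without TCT mouse 1. Muc2, the main secreted mucin, had 944, 848 and 745 CPM in TCT and 753, 724 and 719 CPM in WT (0.21 ± 0.26, edgeR adjusted p = 0.573). Clca1 had 2014, 477 and 999 CPM in TCT and 2387, 2014 and 2553 CPM in WT, with TCT mouse 1 at the lowest WT level and TCT mouse 3 far below it (-0.99 ± 0.46, edgeR adjusted p = 0.105). Retnlb, a bactericidal goblet cell protein, had 26.7, 42.2 and 44.9 CPM in TCT against 0.0762, 0.0666 and 0 CPM in WT, a ratio of 763 (exact 95% interval of the counts 211 to 6306). Klk1, a kallikrein, fell by 2.41 ± 0.26 (edgeR adjusted p = 1.6e-06).

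Of 14 enteroendocrine genes 4 fell and 1 rose (median -0.477), Chga, a granule protein, from 52.5, 53.5 and 69.4 CPM to 27.9, 23.9 and 27.8 CPM (-1.14 ± 0.25, edgeR adjusted p = 0.00156). The falls numbered 2 without WT mouse 4 or TCT mouse 5. Tuft cell genes rose in 2 and fell in 1 of 11 cases (median 0.296), with 1 rise left without WT mouse 1, 2 or 4 or TCT mouse 5. Stem cell and Wnt genes rose in 2 and fell in 2 of 14 cases (median -0.188), with 1 rise left without WT mouse 1 or TCT mouse 5. Of the 14, 3 lay above and 6 below WT in all mice, and DESeq2 on the TCT and WT mice alone called 3 higher and 5 lower. Lgr5, the marker of crypt base stem cells, had 3.49, 7.09 and 5.28 CPM in TCT and 11.4, 13.5 and 11.9 CPM in WT, separated but not past the threshold (-1.21 ± 0.50, edgeR adjusted p = 0.0702). On the TCT and WT mice alone it was called lower (edgeR adjusted p = 0.00634, DESeq2 adjusted p = 9.36e-05).

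Genes of regenerating epithelium rose in 6 of 13 cases (median 0.741). Ly6a, known as Sca-1 and also carried by T cells and endothelium, had 1494, 1026 and 1614 CPM in TCT against 197, 164 and 209 CPM in WT (2.86 ± 0.48, edgeR adjusted p = 0.000142). Sprr1a, a cornified envelope protein, rose by 4.34 ± 0.60, and Clu did not pass (-0.62 ± 0.43). Areg (1.55) was not called without WT mouse 1, WT mouse 2, TCT mouse 1 or TCT mouse 3, with adjusted p up to 0.108. Cell cycle genes rose in 11 of 22 cases (median 0.762), a count that was 6 without WT mouse 4 and 2 without TCT mouse 5. Cdc20, an activator of the anaphase-promoting complex, had 39.1, 71.0 and 115 CPM in TCT and 33.5, 28.4 and 24.5 CPM in WT (1.38 ± 0.31, edgeR adjusted p = 0.00203). Mki67 had 142, 229 and 345 CPM in TCT and 177, 150.3 and 121 CPM in WT, so TCT mouse 1 lay within the WT range (0.68 ± 0.30, edgeR adjusted p = 0.0899). A single cell cycle gene, 1 of the 11, was above all 9 untreated mice.

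Falls outnumbered rises among detoxification and fatty acid oxidation genes. Of 21 detoxification enzymes 8 fell and 3 rose (median -0.786), and 15 lay below WT in all mice. The falls numbered 5 without TCT mouse 3 or TCT mouse 5, and 13 when the TCT and WT mice were fitted alone. Cyp2c55, a cytochrome P450 of the colon epithelium, had 394, 379 and 494 CPM in WT and 3.14, 1.8 and 0 CPM in TCT (-7.98 ± 1.09, edgeR adjusted p = 1.7e-05), with means of 301 and 151 CPM in the untreated Rag-deficient mice. Ces2a and Sult1a1, a carboxylesterase and a sulfotransferase, fell by 2.12 and 2.33 on the log2 scale. Of 17 genes of fatty acid oxidation and ketogenesis 6 fell and 1, Acadl, rose (median -0.181), and the falls numbered 3 without WT mouse 4 and 2 without TCT mouse 5. Ppara, which drives these genes, fell by 1.05 ± 0.28 (edgeR adjusted p = 0.00692). Oxidative phosphorylation genes rose in 1 of 18 cases, Cycs (1.04 ± 0.21), with a median of 0.064.

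Glycolysis and hypoxia genes rose in 12 of 18 cases (median 0.60), 11 of them above all 9 untreated mice. Hk2, a hexokinase, had 696, 462 and 645 CPM in TCT against 136, 165 and 181 CPM in WT (1.90 ± 0.37, edgeR adjusted p = 0.00052). Pfkfb3, which speeds glycolysis, and Hif1a, the hypoxia factor, rose by 2.89 and 1.55. Genes of the unfolded protein response rose in 9 of 18 cases and fell in 1 (median 0.585), and the rises numbered 5 without TCT mouse 5. Sdf2l1, an endoplasmic reticulum chaperone partner, had 56.3, 75.1 and 108 CPM in TCT and 34.7, 35.0 and 41.3 CPM in WT (1.11 ± 0.20, edgeR adjusted p = 0.000335).

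Cell death genes rose in 8 of 15 cases and fell in 1 (median 0.643), with 8 above and 5 below WT in all mice. DESeq2 on the TCT and WT mice alone called 8 higher and 4 lower. All 8 rises were above all 9 untreated mice. Zbp1, a nucleic acid sensor that engages RIPK3, had 179, 128 and 277 CPM in TCT against 8.38, 5.93 and 7.14 CPM in WT (4.77 ± 0.69, edgeR adjusted p = 2.98e-05). Ripk3 and Mlkl, the kinase and the pore protein of necroptosis, rose by 2.99 ± 0.39 and 2.03 ± 0.38. Gsdmd and Casp8, of pyroptosis and apoptosis, rose by 1.04 and 1.14. Nlrp3 (2.53) was not called without TCT mouse 3, TCT mouse 5 or any WT mouse, with adjusted p up to 0.078. Gsdmc3, a gasdermin of the colon, fell from 356, 306 and 345 CPM to 57.8, 104 and 50.7 CPM (-2.24 ± 0.51, edgeR adjusted p = 0.00222), although 46.0% of its windows are shared with another gene.

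In the wall of the colon, matrix genes rose in 6 and fell in 2 of 22 cases (median 0.657), with 14 above WT in all mice. The rises numbered 13 with edgeR and 15 with DESeq2 on the TCT and WT mice alone. Mmp10 and Mmp3, stromelysins, rose by 4.91 ± 0.83 and 2.97 ± 0.66, and Col1a1 did not pass (0.57 ± 0.39). Of 12 smooth muscle genes 4 fell (median -0.862), with 11 below WT in all mice. No fall was called without TCT mouse 3 or TCT mouse 5, 1 without WT mouse 1 or WT mouse 2, and 11 or 12 with edgeR or DESeq2 on the TCT and WT mice alone. Myh11, the smooth muscle myosin, had 1469, 1374 and 1488 CPM in TCT and 2614, 2850.3 and 2426 CPM in WT (-0.87 ± 0.36, edgeR adjusted p = 0.0703), and its mean was 1399 CPM in the untreated mice labelled Rag1-/- and 2296 CPM in those labelled Rag2-/-. Of 15 genes of neurons and glia 2 fell and 1 rose (median -0.561), the falls numbering 1 without WT mouse 1 or TCT mouse 5. Tac1, the substance P precursor, rose by 1.64 ± 0.44. Endothelial adhesion genes rose in 5 and fell in 2 of 12 cases (median 0.569), Madcam1, the gut homing ligand, by 1.74 ± 0.35, Icam1 by 2.81 ± 0.54 and Vcam1 by 1.72 ± 0.24, while Pecam1 did not pass (-0.26 ± 0.21).

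Among the genes with the largest fitted changes, Clca4b, a member of the calcium-activated chloride channel regulator family, had 3358, 2029.8 and 2937 CPM in TCT and 4.57, 4.33 and 3.2 CPM in WT (9.42 ± 0.91, edgeR adjusted p = 3.14e-07). Untreated Rag-deficient mice averaged 26.3 and 74.2 CPM, and 24.8% of the exonic windows of Clca4b occur in another gene. Ubd, a ubiquitin-like protein, Dhrs9, a retinol dehydrogenase, Lrg1 and the protease inhibitor Slpi rose by 5.90, 5.67, 5.45 and 5.25. Sprr2h, without a count in WT, was at least 192-fold higher. Hao2, a peroxisomal oxidase, fell from 286, 283 and 291 CPM to 11.5, 14.5 and 5.75 CPM (-4.75 ± 0.80, edgeR adjusted p = 0.00015). Pck1, the gluconeogenic enzyme, and Dpyd, which breaks down pyrimidines, fell by 3.66 and 3.21 on the log2 scale.

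By CPM, Dmbt1, a mucosal scavenger glycoprotein, gained most, from 2797, 2884 and 3064 CPM in WT to 8095, 4550.2 and 5913 CPM in TCT (1.09 ± 0.19, edgeR adjusted p = 0.0002). Selenbp1, a selenium-binding protein of mature colonocytes, fell from 970.4, 966 and 1138 CPM to 232, 205 and 112 CPM (-2.48 ± 0.53, edgeR adjusted p = 0.00119), and 46.3% of its windows are shared with another gene. Sycn fell by 2.97 ± 0.72 and the sulfate transporter Slc26a2 by 1.71 ± 0.45. Of the genes called higher, 122 had at most 3 counts in every WT mouse, and of those called lower, 80 had at most 3 counts in every TCT mouse.

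Set beside all 9 untreated mice, 1988 of the genes called higher (63.0%) had every TCT mouse above every untreated one, and 1468 of those called lower (57.1%) had every TCT mouse below. The genes counted here had already been called against WT, and the same share over all genes tested was not computed. Among the genes called lower, 592 (23%) also had all 6 untreated Rag-deficient mice below all WT mice, a pattern found in 11.4% of genes tested. Among those called higher, 513 (16.3%) had all 6 above, against 9.44% of genes tested. The WT mice enter each of these counts. Cd59a, an inhibitor of complement, was such a gene outside the lymphocyte lists, with 3.32, 2.91 and 2.59 CPM in TCT, 27.7, 25.3 and 22.0 CPM in WT and means of 4.07 and 6.18 CPM in the untreated Rag-deficient groups (-3.08 ± 0.33, edgeR adjusted p = 1.33e-06). Cd59a was chosen after its values were seen. The 6 untreated Rag-deficient mice differed from WT in H2-Ea-ps and H2-K1 as well as in lymphocytes. Background and missing lymphocytes cannot be told apart in these counts.

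The 3 TCT mice differed among themselves by list. TCT mouse 1 had the highest level in 17 of 19 T-cell receptor genes, 10 of 12 class II genes, 16 of 23 absorptive genes and 15 of 22 matrix genes. TCT mouse 5 had the highest level in all 15 GTPases, all 22 cell cycle genes, 15 of 22 interferon-γ pathway genes, 13 of 18 type I interferon genes and 15 of 18 genes of the unfolded protein response. TCT mouse 3 led no GTPase, interferon or class II gene. For pairs of TCT mice the chi-square of the counts over its degrees of freedom, which is near 1 for sampling noise alone, was 15.65 to 33.6, against 3.649 to 8.201 for pairs of WT mice. The TCT libraries were thus more unlike each other than the WT libraries, with no 2 of them close to a repeat.

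**Figure D4:**
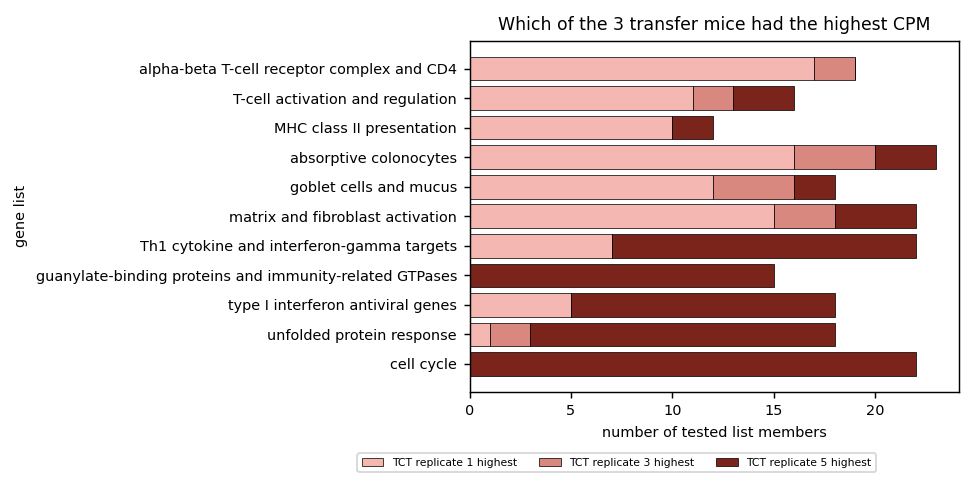
Number of tested members (horizontal axis) of 11 gene lists (vertical axis) that were highest in TCT mouse 1, 3 or 5, as stacked bars. TCT mouse 1 leads the T-cell receptor list (17 of 19) and TCT mouse 5 leads the GTPases (15 of 15) and the cell cycle list (22 of 22).

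Lists of other tissues and of handling were read the same way. Of 5 erythrocyte genes 0 passed edgeR's adjusted threshold, 0 had an unadjusted p under 0.05 and 0 were called by DESeq2 (median -0.039). Of 6 fat genes 0 passed, and 1 was higher at an unadjusted p under 0.05 and by DESeq2 (median -0.674). Of 9 pancreas genes 3 were tested and 1 fell, Cela1, an elastase, from 467, 444 and 511 CPM to 138, 119 and 89.1 CPM (-2.04 ± 0.40, edgeR adjusted p = 0.000653). Of 10 genes of small intestine and Paneth cells 4 were tested and 2 rose, Lyz1 by 2.58 ± 0.53 and Fabp6, a bile acid carrier, by 2.38 ± 0.68 (median 1.528). Clock genes of the Arntl phase fell in 1 of 5 cases (median -0.059) and those of the opposite phase in 3 of 10 (median -0.236), 1 of them without TCT mouse 5. Arntl fell by 0.71 ± 0.18 (edgeR adjusted p = 0.00498), and its mean was 70.9 CPM in the untreated mice labelled Rag1-/- and 24.4 CPM in those labelled Rag2-/-. The hour of sampling is not given in the labels. Of 5 sex-linked transcripts 1, Xist, was tested and called lower, with a level of 396 to 422 CPM in TCT and 576 to 674 CPM in WT. Of the 7 genes of genotype and background 3 rose (median 1.127), Rag1, Gbp2b and Tbx21.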

How the data were processed

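Poly(A) RNA of mouse colon was sequenced after library preparation with a NEBNext kit, 1 library per mouse. The authors deposited raw counts, whole numbers of reads per gene and mouse without normalization. The submitters' processing notes name Trimmomatic, HISAT2, HTSeq and the build GRCm38, and versions, annotation release and strand setting are not given in the sources used here. No read was counted on the 92 spike-in sequences. All columns were mapped to samples (0 left out), and groups were taken from the labels.

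Counts were tested with edgeR 4.0.16 (R 4.3.3) by a quasi-likelihood fit to all 29 mice in 9 groups with TMM scaling, for the 18616 of 54532 genes that averaged 3 or more counts across the mice. The contrast was TCT minus WT, and p-values were Benjamini-Hochberg adjusted over all genes tested. Standard errors (SE) were obtained from the F statistic, as the absolute log2 fold change over its root. CPM are counts relative to library size on the TMM scale. A count of 0 allows 3 counts, 0.1998 to 0.278 CPM in these 6 libraries, and folds against a group at 0 use 3 counts over the group. These limits and the exact 95% intervals for groups of 1 to 3 counts cover counting error only. The labels do not say that mice of a group came from separate cages or litters, so p-values measure the spread between mice only. That spread was pooled over the 29 mice of the 9 groups, although TCT mice were more unlike each other than WT mice.

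The comparison and the 43 gene lists were chosen with earlier results of these data known. Named genes are list members, the 10 largest rises and falls by fold (lower group at least 1 CPM), by level where the other group had at most 3 counts per mouse, and by CPM difference, leaving out receptor segments and unnamed models, with those chosen after their values were seen described as such. Some list members are not reported here by name. Reads shared between genes were judged from 50-base exonic windows in GENCODE M21. Promoters came from RefSeq (GRCm38.p6). Figures were drawn with matplotlib 3.10.9 under Python 3.11.15. Tested on simulated counts (18616 genes, 200 changed), edgeR recovered 55% of 2-fold and 93% of 4-fold changes with 9 other genes called, and DESeq2 1.42.0 recovered 76.5% of the changed genes with 49 others. The simulated TCT mice took WT levels and the spread pooled over all groups, and genes of low count in WT were not among those changed. The TCT mice were more unlike each other than WT mice and far more genes were called, so these figures need not hold for this comparison. Alternatives were RLE and upper quartile scaling, scaling without immunoglobulin genes, other count filters, the TCT and WT mice alone in edgeR or DESeq2, stricter thresholds and leaving out each mouse.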

Additional observations from a re-analysis of the deposited data

How the results depend on the processing

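Of 240 named genes called, 205 kept their call and direction in all 13 alternative fits, 35 lost the call in at least 1, and 0 reversed. Leaving out 1 mouse turned the sign of uncalled genes in Cd8b1 (from -1.34 to 0.42) and Spib (from -0.88 to 0.19). The named genes Slc26a3, Aqp8, Cd163, Lgr5, Il18, Myh11, Ly6g, Pigr, Ccl28 and Col1a1 did not pass in the fit to all mice. On the TCT and WT mice alone, edgeR and DESeq2 each called them, in the same direction. No gene called in the comparison was called in the opposite direction under any alternative, and the causes of the shifts listed here were not tested. No paired analysis was possible because TCT and WT share only 1 replicate number.

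Leaving out 1 mouse gave 2162 to 3172 genes higher and 1520 to 2638 lower, with the fewest falls without TCT mouse 5. Upper quartile scaling gave 2429 and 3385, RLE 3032 and 2667, no filter 2662 and 2180, the TCT and WT mice alone 2955 and 3139 in edgeR and 3262 and 2756 in DESeq2. An adjusted p under 0.01 left 1855 higher and 1279 lower, and a log2 fold change of at least 1 left 1420 and 1279.

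Counts of list members, leaving out 1 mouse at a time, ran from 7 to 15 for type I interferon genes higher, 2 to 3 for the Th17 and IL-22 axis, 3 to 6 for absorptive colonocytes lower, 1 to 5 for goblet cells lower, 2 to 5 for enteroendocrine cells lower, 1 to 2 for tuft cells higher, 1 to 2 for stem cells higher, 2 to 15 for the cell cycle, 0 to 3 for smooth muscle lower, 1 to 3 for neurons and glia lower, 2 to 6 for fatty acid oxidation lower, 5 to 9 for detoxification lower, 5 to 12 for the unfolded protein response and 1 to 3 for the Dbp phase of the clock lower. At an adjusted p under 0.01 the counts were 8 (type I interferon), 2 (Th17 and IL-22 axis), 3 (absorptive), 1 (goblet), 2 (enteroendocrine), 1 (tuft), 1 (stem), 4 (cell cycle), 0 (smooth muscle), 1 (neurons and glia), 2 (fatty acid oxidation), 5 (detoxification) and 1 (clock). With a log2 fold change of at least 1 they were 3 (absorptive), 1 (goblet), 1 (tuft), 1 (smooth muscle), 2 (fatty acid oxidation), 3 (unfolded protein response) and 6 (glycolysis and hypoxia). On the TCT and WT mice alone, edgeR and DESeq2 gave 9 and 9 for the Th17 and IL-22 axis, 10 and 10 for absorptive colonocytes, 13 and 15 for matrix genes, 11 and 12 for smooth muscle, 5 and 6 for neurons and glia and 13 and 13 for detoxification. Upper quartile scaling gave 2 for the Th17 and IL-22 axis, 1 for tuft cells and 5 for neurons and glia, and RLE scaling and no filter each gave 1 for tuft cells. Genes of a few counts included the T helper cytokines Il17a and Il22, which did not pass in the fit to all mice. On the TCT and WT mice alone, edgeR called both higher (adjusted p = 0.016 and 0.00714). DESeq2 did so too (adjusted p = 0.007 and 0.000478). The part of sequencing depth in this difference was not tested.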
